A study of Mus musculus with 4 samples.

Results

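Homeobox genes of the Cdx, Meis and Pbx families were examined in cardiac differentiation cultures of mouse embryonic stem cells (ESCs), as the rows of the normalized count table named *Cdx1*, *Cdx2*, *Cdx4*, *Meis1*, *Meis2*, *Meis3*, *Pbx2*, *Pbx3* and *Pbx4*. These are 9 of the 24637 genes listed, 3 from each family, and they were chosen by name. Poly-A RNA was sequenced in 4 libraries, 2 labelled WT (Taf4+/+) and 2 labelled *Taf4a*-/-, from ESC lines that the study derived from blastocysts of heterozygous crosses. The *Taf4a* null allele lacks a pair of coding exons in every cell from the blastocyst on, so no stage of the cultures had normal Taf4, a core subunit of the TFIID complex that assembles at promoters. ESCs of both genotypes had been kept on feeder fibroblasts, were aggregated as embryoid bodies for 5 days in serum-rich medium, and stayed on gelatin for another 9 days (day 9 in the labels). By the study's methods, the 2 libraries of each genotype are biological replicates from independent ESC lines. The p-values rest on the spread between these libraries, moderated towards a trend over all genes tested. That trend had more weight, with a prior of 4.17 against 2 residual degrees of freedom.

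The *Cdx* genes encode caudal-type homeodomain factors that Wnt, Fgf and retinoic acid signals switch on in the posterior embryo, where they activate central and posterior *Hox* genes. *Cdx2* also acts in the trophectoderm and, with *Cdx1*, in the intestinal epithelium. Meis and Pbx proteins belong to the TALE class of homeodomain factors, named for extra residues in a loop of the homeodomain. They bind each other and bind DNA together with Hox proteins, which sharpens the choice of target sites, and Meis partners help to hold Pbx proteins in the nucleus. In the heart, Meis and Pbx factors are known for roles in the outflow tract, and *Meis1* for a role in the withdrawal of cardiomyocytes from the cell cycle.

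Promoter sequences were held for 7 of the 9 genes in a RefSeq table (GRCm38.p6), and *Cdx1* and *Pbx3* had no entry. The 250 bases before the start site of 4 genes are shown, 5′ to 3′ on the strand of the gene, because *Meis1* and *Pbx2* moved in opposite directions, *Cdx2* was the most abundant *Cdx* gene and *Meis2* held the single motif match. Capitals mark that match (TATAAA).
Meis1, chr11:19018970-19019219, minus strand: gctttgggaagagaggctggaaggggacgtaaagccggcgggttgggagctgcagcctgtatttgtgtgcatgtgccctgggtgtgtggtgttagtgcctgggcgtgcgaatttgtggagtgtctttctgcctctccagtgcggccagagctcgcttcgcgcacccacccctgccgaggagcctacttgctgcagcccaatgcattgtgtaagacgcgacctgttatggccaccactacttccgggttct
Pbx2, chr17:34592009-34592258, plus strand: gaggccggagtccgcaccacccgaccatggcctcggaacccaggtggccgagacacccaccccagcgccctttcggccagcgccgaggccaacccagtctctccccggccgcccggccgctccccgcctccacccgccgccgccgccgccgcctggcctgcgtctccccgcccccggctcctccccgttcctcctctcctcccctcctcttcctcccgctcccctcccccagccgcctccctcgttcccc
Cdx2, chr5:147307250-147307499, minus strand: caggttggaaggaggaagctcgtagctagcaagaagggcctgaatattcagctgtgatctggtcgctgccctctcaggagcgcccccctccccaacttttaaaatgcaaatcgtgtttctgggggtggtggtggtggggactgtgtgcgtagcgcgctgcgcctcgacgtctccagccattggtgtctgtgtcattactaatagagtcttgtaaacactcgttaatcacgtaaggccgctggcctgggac
Meis2, chr2:116064620-116064869, minus strand: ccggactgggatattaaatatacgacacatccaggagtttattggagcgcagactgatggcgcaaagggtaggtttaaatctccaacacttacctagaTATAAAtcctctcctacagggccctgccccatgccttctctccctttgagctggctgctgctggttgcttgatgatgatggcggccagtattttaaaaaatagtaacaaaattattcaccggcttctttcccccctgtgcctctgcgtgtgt

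Windows of 300 bases, these 250 and the next 50, were searched on both strands for 4 motifs. The Cdx motif TTTATG, the Meis motif TGACAG and the Pbx-Hox motif TGATNNAT were in 0 of the 7 windows, and in 11.9%, 19.2% and 8.85% of 32851 promoter windows of the same table. The TATA box letters TATAAA were in 1 of the 7 windows and in 13.6% of all windows. The match in *Meis2* ran from position -152 to -147 before the start site. The ratio of observed to expected CpG was 0.59 for *Meis1*, 0.73 for *Cdx2* and 0.88 for *Pbx2*, against a median of 0.38 over all windows. The *Pbx2* window was 76.0% G or C, higher than 96.9% of all windows, and that of *Meis1* was 58.3%.

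The libraries held 21732746 to 27733034 reads on genes, and values are counts divided by the authors' size factor for each library. *Taf4a* itself had 678 and 889 normalized counts in WT and 1722 and 1799 in the libraries labelled *Taf4a*-/-. A count over the whole gene does not resolve the deleted exons, so it does not check the labels, and the genotypes are those of the labels. Among 15 tested cardiomyocyte markers 13 fell, with summed levels of 31100 and 32240 in WT against 3057 and 3443 in the others, and *Tnnc1* was at 0 or 1 read in each library. Of 16 pluripotency markers 12 were higher, with sums of 10180 and 15860 in WT against 32080 and 33760, and WT replicate 1 had the larger WT sum. Neural markers (1 of 9 higher) summed to 4258 to 6670 in all libraries. Markers called lower numbered 7 of 12 for fibroblasts, 11 of 12 for visceral endoderm and 12 of 12 for macrophages. Of 12 endothelial markers 1 was lower and 0 were higher. Among all genes tested, 28.6% were called in either direction. In *Xist*, the RNA of the inactive X, the libraries also differed, with 217 and 6470 normalized counts in the libraries labelled *Taf4a*-/- and under 10 in WT. In bulk cultures of this kind, fewer cells of a type and less RNA per cell cannot be told apart.

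Of the 9 genes, 8 averaged 10 or more normalized counts per library and were tested, and *Cdx4* was not. *Cdx1* reached this mean only through the libraries labelled *Taf4a*-/-. At an adjusted p-value under 0.05 from limma, *Cdx1* and *Meis1* rose and *Pbx2* and *Pbx3* fell in the libraries labelled *Taf4a*-/-. The other 4 tested genes were not called. Leaving out 1 library at a time gave 0 to 3 that rose and 0 to 1 that fell. Among all 16926 genes tested 28.6% were called, 11.3% higher and 17.3% lower. Values of 6 of the 8 tested genes did not overlap between the genotypes, against 71.1% of all genes tested. The median log2 fold change over the 8 genes was 0.22 and that over all tested genes was -0.01. The absolute change exceeded the median of all tested genes, 0.42 on the log2 scale, for 5 of the 8.

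**Figure D1:**
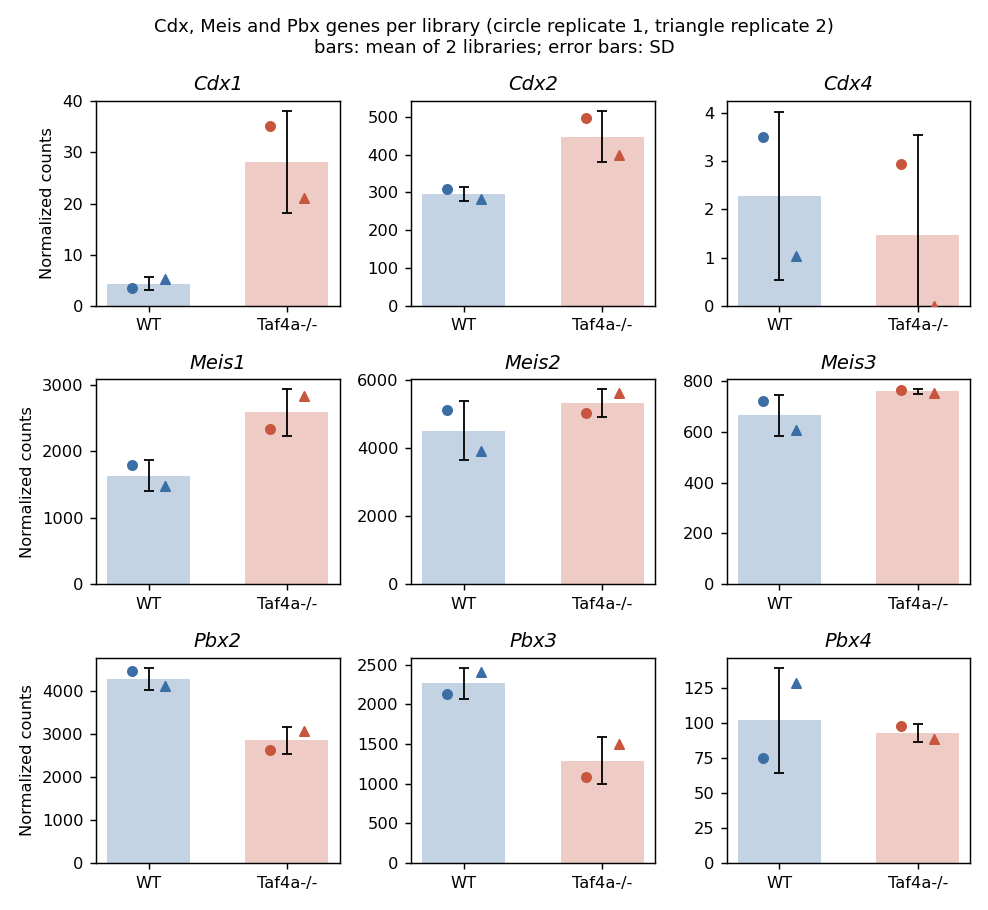
Normalized counts of the 9 genes in each library, with a linear axis of its own for each gene; bars are means of 2 libraries, error bars are SDs, circles are replicate 1 and triangles replicate 2. Both *Cdx1* and both *Meis1* values of the libraries labelled *Taf4a*-/- lie above WT, those of *Pbx2* and *Pbx3* lie below, and *Pbx4* and *Meis2* overlap.

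*Cdx1*, a target of Wnt and retinoic acid signals that sets vertebral identity, was almost silent in WT, with 3.51 and 5.20 normalized counts (4 and 5 reads). In the libraries labelled *Taf4a*-/- it had 35.2 and 21.0 (reads 36 and 19). Both of these were well above WT, although all 4 values were low. With WT under the mean of 10 required, a gene this low could be tested only where it was higher in the other libraries. The means were 4.35 ± 1.19 and 28.1 ± 10.1 normalized counts (SD, n = 2 each), a ratio of 6.46. From the summed reads, 55 against 9, the ratio scaled by the size factors was 6.67. Its exact 95% interval of 3.27 to 15.4 covers counting error only. On the log2 scale the difference was 2.42 ± 0.52 (SE, limma, adjusted p = 0.0211), with values taken as log2(value + 1), a scale that understates the change of so low a gene. Without WT replicate 2 the call was lost (adjusted p = 0.0562 from limma), and the log2 fold change was 1.39 with a pseudocount of 10 and 3.11 with quantile normalization.

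*Cdx2*, which activates posterior *Hox* genes, had 308 and 283 normalized counts in WT and 496 and 399 in the libraries labelled *Taf4a*-/-. The genotypes did not overlap, and the mean was 1.52 times as high in the latter. This log2 fold change, 0.59 ± 0.19 (SE, 95% interval 0.14 to 1.04), did not pass the threshold after adjustment (adjusted p = 0.0586 from limma). With quantile normalization, which moved the median of all genes to 0.11, it was 0.81 and passed (adjusted p = 0.025 from limma). *Cdx4*, the X-linked member that acts with the others on *Hox* genes in the posterior embryo, had 4 and 1 reads in WT and 3 and 0 in those labelled *Taf4a*-/-. A difference in *Cdx4* was not detectable at this depth, since the ratio of the summed reads, 0.655, had an exact 95% interval of 0.102 to 3.37 for counting error. Per kilobase of exons, *Cdx2* made up 97.3% of the *Cdx* level in each WT library and 91.0% and 93.6% in the others. The share of *Cdx1* was 1.43% and 2.31% in WT and 8.35% and 6.37% in the libraries labelled *Taf4a*-/-.

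*Meis1*, which partners Pbx and posterior Hox proteins, had 1796 and 1476 normalized counts in WT and 2339 and 2832 in the libraries labelled *Taf4a*-/-. Both of the latter exceeded both WT values, and the WT libraries differed from each other by 0.28 on the log2 scale. Mean levels were 1636 ± 226 and 2586 ± 349 (SD, n = 2 each). *Meis1* thus rose 1.58-fold, or by 0.66 ± 0.16 on the log2 scale (SE, limma, adjusted p = 0.0274). The call was lost without WT replicate 2 (0.52, adjusted p = 0.0914 from limma), without *Taf4a*-/- replicate 2 (0.52, adjusted p = 0.162) and with no variance trend (adjusted p = 0.0909).

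*Meis2*, expressed in limb, craniofacial and cardiac neural crest tissue of the embryo, had the highest raw level of the *Meis* genes. It had 5122 and 3905 normalized counts in WT and 5047 and 5619 in the libraries labelled *Taf4a*-/-, and the genotypes overlapped. The log2 fold change of 0.25 had a 95% interval of -0.14 to 0.64 (adjusted p = 0.279 from limma). Without WT replicate 1, in which *Meis2* was higher than in WT replicate 2, it was 0.45 and passed (adjusted p = 0.0459 from limma). *Meis3*, known for a role in hindbrain patterning, had 722 and 608 normalized counts in WT and 765 and 752 in the others. These did not overlap, but the difference was smaller than the gap of 0.25 between the WT libraries on the log2 scale. The log2 fold change was 0.20, with a 95% interval of -0.17 to 0.56 (adjusted p = 0.356 from limma). Within the *Meis* genes, *Meis1* took 22.7% and 23.2% of the level per kilobase in WT and 27.2% and 30.2% in the libraries labelled *Taf4a*-/-.

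*Pbx2*, a broadly expressed Pbx cofactor, had 4462 and 4100 normalized counts in WT and 2626 and 3068 in the libraries labelled *Taf4a*-/-. Both WT values were above both others, and the means were 4281 ± 256 and 2847 ± 312 (SD, n = 2 each), 1.5 times as high in WT. On the log2 scale *Pbx2* differed by -0.59 ± 0.13 (SE, limma, adjusted p = 0.0219). Its call was lost without *Taf4a*-/- replicate 1, *Taf4a*-/- replicate 2 or WT replicate 2 (adjusted p = 0.191, 0.0586 and 0.0517 from limma), and with no variance trend (adjusted p = 0.0802).

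*Pbx3*, required in the mouse for central control of breathing, had 2126 and 2406 normalized counts in WT and 1084 and 1499 in the libraries labelled *Taf4a*-/-. The genotypes did not overlap, and the libraries labelled *Taf4a*-/- differed by 0.47 from each other on the log2 scale. Mean levels were 2266 ± 198 and 1291 ± 293 (SD, n = 2 each), 1.76 times as high in WT. On the log2 scale *Pbx3* differed by -0.83 ± 0.18 (SE, limma, adjusted p = 0.0218). The call was lost without *Taf4a*-/- replicate 1, WT replicate 1 or WT replicate 2 (adjusted p = 0.109, 0.0512 and 0.102 from limma), and with no variance trend (adjusted p = 0.0786).

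*Pbx4*, best known from the testis, had 75.4 and 129 normalized counts in WT and 97.9 and 88.5 in the libraries labelled *Taf4a*-/-. The last pair lay between the WT values. The log2 fold change of -0.08 had a 95% interval of -0.89 to 0.73 (adjusted p = 0.871 from limma), and its sign turned with quantile normalization (0.27) and without WT replicate 2 (0.30).

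**Figure D2:**
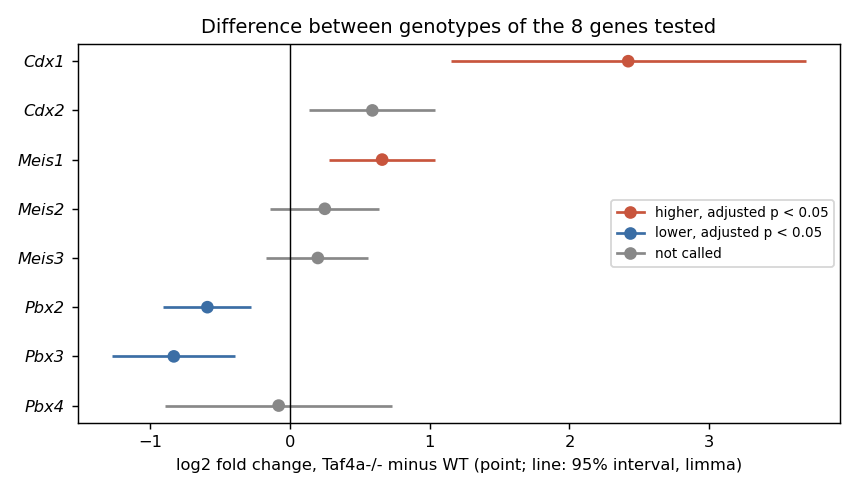
Log2 fold change (*Taf4a*-/- minus WT) of the 8 genes tested, with limma's 95% interval as a line; red genes were higher, blue genes lower and grey genes not called. *Cdx1* stands at 2.42, *Meis1* at 0.66, *Pbx2* at -0.59 and *Pbx3* at -0.83, and the intervals of *Meis2*, *Meis3* and *Pbx4* include 0.

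Levels of different genes were compared per kilobase of exons. In WT *Pbx2* stood first with 1176 ± 70.7 normalized counts per kilobase (SD, n = 2), above 92.5% of the genes tested. *Meis2*, *Meis3* and *Pbx3* followed with 380 ± 72.5, 365 ± 44.1 and 354 ± 31.0 (SD, n = 2 each), and these neighbours overlapped in the order given. *Meis1* with 221 ± 30.6 and *Cdx2* with 131 ± 7.85 (SD, n = 2 each) came next and did not overlap. *Pbx4*, *Cdx1* and *Cdx4* were the lowest, at 34.6, 2.49 and 1.16. In the libraries labelled *Taf4a*-/- the order differed in 1 place, with *Meis1* at 350 ± 47.2 ahead of *Pbx3* at 202 ± 45.9 (SD, n = 2 each). There *Pbx2* was still first at 782 ± 85.8 (SD, n = 2), and *Cdx2* at 198 ± 30.3 overlapped *Pbx3*. All other neighbours were apart in both libraries.

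**Figure D3:**
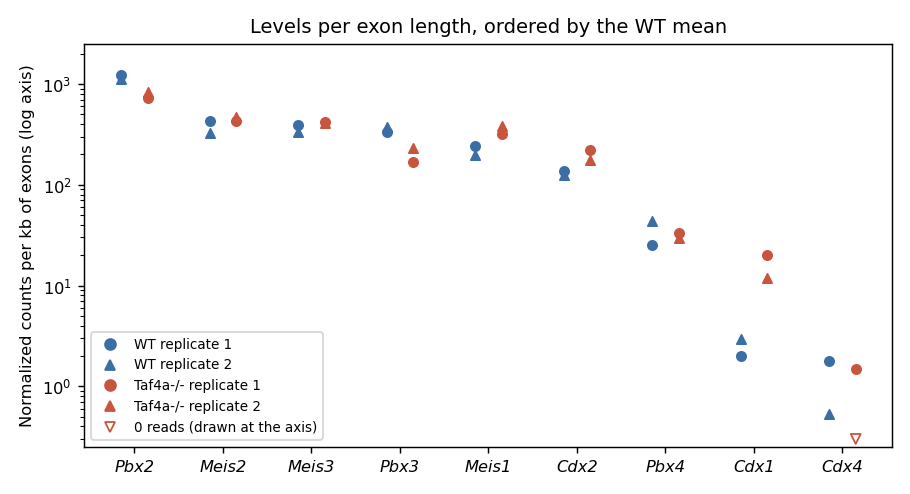
Normalized counts per kilobase of exons in each library on a log axis, with genes ordered by their WT mean; an open triangle marks 0 reads. *Pbx2* is highest in all 4 libraries, and *Meis1* and *Pbx3* exchange places between the genotypes.

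Ratios between genes within a library do not depend on the scaling between libraries, so they were compared between genotypes without correction for length. The ratio of *Meis1* to *Pbx3* counts was 0.845 and 0.614 in WT and 2.16 and 1.89 in the libraries labelled *Taf4a*-/-, a difference of 1.49 on the log2 scale. That of *Meis1* to *Pbx2* was 0.403 and 0.36 in WT and 0.89 and 0.923 in the others, a difference of 1.25. Both ratios were higher in each library labelled *Taf4a*-/- than in each WT library. They pair genes called in opposite directions in the same data, so this separation follows from those calls and adds no evidence to them. Of the 28 pairs of tested members, which reuse the same 8 genes, the ratios of 21 did not overlap between the genotypes. The share over all gene pairs was not computed, and 71.1% of all single genes tested did not overlap. This count is therefore not read as a result about the members. The ratios of *Cdx2* to *Meis1* overlapped. *Meis1* also gained on its own paralogues, with ratios to *Meis2* of 0.351 and 0.378 against 0.463 and 0.504, and to *Meis3* of 2.49 and 2.43 against 3.06 and 3.77. The ratio of *Cdx1* to *Cdx2* was 0.0114 and 0.0184 in WT and 0.071 and 0.0526 in the others. The ratios of *Pbx2* to *Pbx3* overlapped between the genotypes (2.10 and 1.70 against 2.42 and 2.05), and so did those of *Meis2* to *Meis3* (7.10 and 6.42 against 6.6 and 7.47). No test was made on the ratios.

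**Figure D4:**
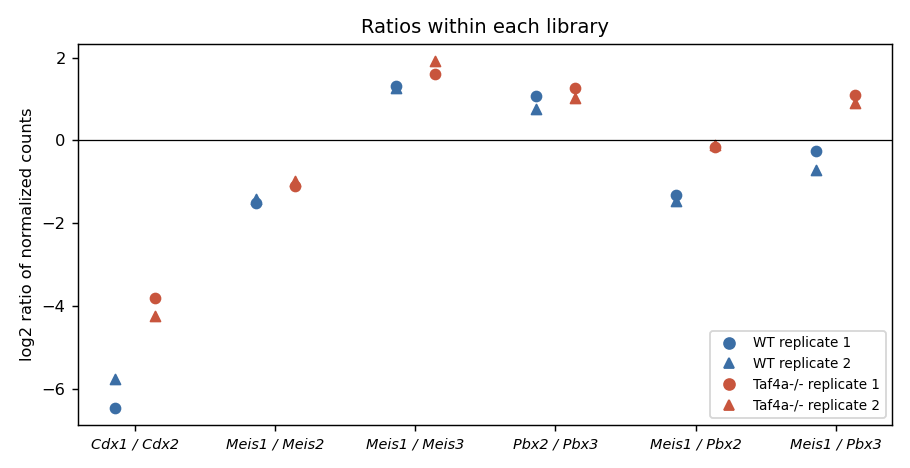
Log2 ratio of the normalized counts of 2 genes within each library, for 6 pairs. *Meis1* over *Pbx3* lies below 0 in both WT libraries and above 0 in both libraries labelled *Taf4a*-/-, and *Pbx2* over *Pbx3* overlaps between the genotypes.

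Genes around these factors were then counted from lists chosen with earlier results of these data known. Of 38 tested *Hox* genes, the partners and targets of the members, 29 rose and 0 fell in the libraries labelled *Taf4a*-/- (76.3% called, against 28.6% of all genes), with a median log2 fold change of 1.95. Without WT replicate 2, 19 rose. The pluripotency markers moved with the *Hox* genes (12 of 16 higher, median 2.62). In both lists the sum was larger in WT replicate 1 than in WT replicate 2 (3394 against 2455 for *Hox*, 15860 against 10180 for pluripotency). Endothelial markers (13920 against 9050) and the other TALE genes (5012 against 3867) also had the larger sum in WT replicate 1. So did posterior axis genes (10800 against 7465), outflow, limb and mesenchyme factors (36870 against 32550), and visceral endoderm, cardiomyocyte and trophectoderm markers. Fibroblast, macrophage, neural and intestinal markers had it in WT replicate 2. The neural sum leaned on *Nes* (2823 and 3746) and the intestinal sum on *Krt20* (384 and 1162). Median log2 differences, WT replicate 1 minus replicate 2, were 0.91 for tested neural and -0.22 for tested intestinal genes. The part of the pluripotency markers in the *Hox* rise was not tested. *Hoxa6* rose most, from 6.14 and 0 to 129 and 101 normalized counts, and passed the filter only through the latter. Of 10 other TALE genes tested 1 rose and 1 fell (20.0% called), a median of -0.18. *Tgif1*, a repressor in TGF-beta signalling, rose from 1704 and 1501 to 2523 and 2456 normalized counts, and *Irx4*, a factor of ventricular muscle, fell from 123 and 109 to 15.7 and 19.9. Of these 10 genes 0 rose without *Taf4a*-/- replicate 1 or without replicate 2, and 3 rose without WT replicate 1. *Pknox1*, which binds Pbx proteins as Meis does, was not called, with 790 and 814 normalized counts in WT and 780 and 932 in the others (adjusted p = 0.672 from limma). *Pknox2* had 627 and 512 against 371 and 458 (adjusted p = 0.117 from limma).

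Of 21 tested posterior axis genes, which include signals upstream of *Cdx*, 7 rose and 1 fell (38.1% called, against 28.6% of all genes), with a median of 1.06. The number that rose was 13 without WT replicate 1, 12 with the replicate number as a block and 4 with no variance trend. *Nkx1-2*, a factor of caudal progenitors, rose from 47.3 and 29.1 to 621 and 327 normalized counts. *Aldh1a2*, which makes retinoic acid, rose from 522 and 410 to 1510 and 1676, and *Cyp26a1*, which degrades it, fell from 984 and 1112 to 582 and 411. *Lef1* and *Tcf7*, nuclear effectors of Wnt, rose from 686 and 265 to 1583 and 1428 and from 1079 and 610 to 2265 and 1700 (adjusted p = 0.0241 and 0.0236 from limma). *Gdf11*, also a signalling gene, rose from 481 and 589 to 1180 and 1051 (adjusted p = 0.00738 from limma). *Fgf4* rose as well (adjusted p = 0.00326 from limma). Signalling genes of the list that were not called included *Axin2*, *Wnt5b*, *Wnt8a* and *Rspo3* (adjusted p = 0.14, 0.333, 0.0865 and 0.706 from limma). *Fgf8* and *Rarg* were not called either (adjusted p = 0.629 and 0.473 from limma). *T* (Brachyury) was uneven in WT, with 194 and 13.5 against 405 and 210, and was not called (adjusted p = 0.148 from limma). Leaving out WT replicate 1 gave a list median of 1.68, and leaving out replicate 2 gave 0.59, and *Fgf4* and *Sall4*, which rose, are pluripotency genes as well. The pluripotency markers given above rose between the genotypes in the same direction as these genes, *Cdx1* and *Meis1*, and their part in these rises was not tested. Within each genotype, *Cdx1* was higher in the library with the lower pluripotency sum, and *Meis1* in the library with the higher one. For *Cdx1* the WT libraries held only 4 and 5 reads, and the pluripotency sums of the libraries labelled *Taf4a*-/- were close (32080 and 33760).

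Of 24 transcription factors of outflow tract, limb and mesenchyme, where Meis and Pbx proteins act, 3 rose and 6 fell (37.5% called, against 28.6% of all genes), with a median of -0.22. Leaving out 1 library at a time gave 1 to 6 that rose and 2 to 7 that fell. *Shox2*, a factor of the sinus node and limb, rose from 148 and 89.4 to 287 and 262 normalized counts, and *Osr1*, of intermediate mesoderm, fell from 630 and 487 to 134 and 103. The median was 0.09 without WT replicate 1 and 0.03 with quantile normalization, where that of all genes was 0.11. The cardiomyocyte, fibroblast, visceral endoderm and macrophage markers given above fell together with *Pbx2* and *Pbx3*, and their part in these falls was not tested.

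**Figure D5:**
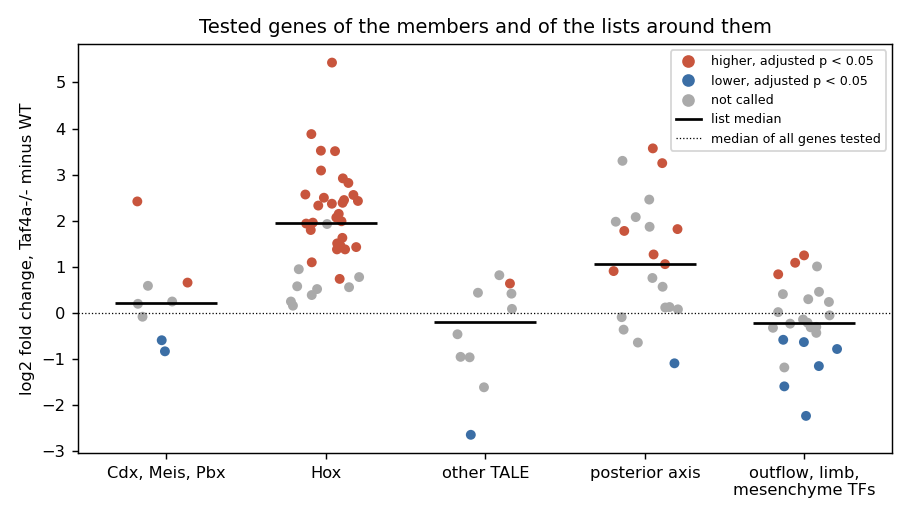
Log2 fold change (*Taf4a*-/- minus WT) of each tested gene among the 8 members and in 4 lists; red points were higher, blue points lower and grey points not called, bars are list medians and the dotted line is the median of all genes. The *Hox* median lies at 1.95 and the posterior axis median at 1.06, while those of the members, the other TALE genes and the outflow, limb and mesenchyme factors lie between -0.22 and 0.22.

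The genes with the profile nearest to each family's most changed member over the 4 libraries were found by the distance between centred log2 values, among 13864 genes with a mean of at least 50. *Gpat2* (0.235) and *Gm15222* (0.283) were nearest to *Cdx1*, with 10 genes within a distance of 0.5. *Sclt1* (0.0691) and *2310045N01Rik* (0.0757) were nearest to *Meis1*, and *Fam92a* (0.0754) and *Capn6* (0.0765) to *Pbx3*. Within 0.5 of *Meis1* and *Pbx3* lay 3120 and 1283 genes, so profiles over 4 libraries do not single out a gene.

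Positions are those of NCBIM37, the build the authors mapped to. The *Cdx* genes have 3 exon blocks each and lie at chr18:61178516-61195853 (*Cdx1*, minus strand), chr5:148112381-148118846 (*Cdx2*, minus strand) and chrX:100516737-100525931 (*Cdx4*, plus strand). *Meis1*, *Meis2* and *Meis3* lie at chr11:18780433-18918961 (minus strand), chr2:115688800-115891575 (minus strand) and chr7:16760729-16771853 (plus strand). *Pbx2*, *Pbx3* and *Pbx4* lie at chr17:34728211-34734345 (plus strand), chr2:34026977-34228660 (minus strand) and chr8:72356523-72397062 (plus strand). Exons of *Meis1* overlap those of *Gm16140* on the other strand over 896 nt, 12.1% of its exon length. *Gm16140* had 1 read in WT replicate 1 and 0 in the other libraries, and the library kit does not mark strand. Exons of *Pbx2* overlap those of *Gpsm3* on the same strand over 227 nt, 6.24% of its exon length, and *Gpsm3* was not called (log2 fold change -0.15, adjusted p = 0.684 from limma). Of the 36-base words in protein-coding transcripts of the members, 0% (*Cdx1*, *Cdx2*, *Cdx4*, *Meis3* and *Pbx3*) to 5.62% (*Pbx2*) were also in those of another gene.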

How the data were processed

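Poly-A RNA was sequenced in 2 WT and 2 *Taf4a*-/- libraries. According to the submitters' processing notes and the methods, the authors mapped reads to mm9/NCBI37 with TopHat 1.3.3, counted them per gene with HTSeq 0.5.3p1 and deposited counts divided by a DESeq size factor for each library. The annotation release and strand setting are not given in the sources used here. All 24637 gene identifiers matched GENCODE M1 on NCBIM37 (99.4% with the same symbol), which gave positions and exon lengths.

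Every deposited value was a whole multiple of its library's smallest positive value (within 0.001 read), so reads were recovered, 21732746 to 27733034 per library. Genes averaging 10 or more normalized counts entered 1 linear model per gene on log2(value + 1), with variances moderated towards a trend by limma 3.58.1 (R 4.3.3). Benjamini-Hochberg adjustment covered all 16926 genes, and a gene was called at an adjusted p-value under 0.05. The fit had 2 residual degrees of freedom and a prior of 4.17. The method was tested on simulated data. Members and lists were chosen with earlier results of these data known. Named list genes are the called gene with the largest rise and fall whose values do not overlap. *Pknox1*, *Pknox2*, *Aldh1a2*, *Lef1*, *Tcf7*, *Gdf11*, *Axin2*, *Wnt5b*, *Wnt8a*, *Rspo3*, *Fgf8*, *Rarg*, *T*, *Fgf4*, *Sall4*, *Nes*, *Krt20* and *Tnnc1* were named after their values were seen. The list genes *Sox1* and *Sis* were not analysed here.

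Alternatives were other pseudocounts, filters, scalings, variance models and thresholds, voom on the recovered reads, a replicate block, and leaving out each library. Figures were drawn with matplotlib 3.10.9.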

Additional observations from a re-analysis of the deposited data

How the results depend on the processing

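With voom on the recovered reads, pseudocounts of 0.5 and 10, equal totals and the replicate block, the calls of the 8 tested genes were those of the main analysis. The edgeR and DESeq2 tests planned on recovered reads were not run, and the threshold of 0.01 was not applied to the lists. The replicate numbers are not known to pair the libraries (correlation of replicate differences between genotypes over genes 0.01), and the block left 1536 genes higher and 2657 lower, against 1906 and 2928.

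With the threshold at 0.01, 331 genes were higher and 1119 lower, and 0 members were higher and 0 lower, so the calls of *Cdx1* (2.42), *Meis1* (0.66), *Pbx2* (-0.59) and *Pbx3* (-0.83) were lost. With no variance trend, 856 genes were higher and 1741 lower, 1 member was higher and 0 lower, and *Meis1* (0.66), *Pbx2* (-0.59) and *Pbx3* (-0.83) were not called. Without *Taf4a*-/- replicate 1, or with a mean of at least 50 required, *Cdx1* was not tested, and at 50 or more 1 member was higher. With quantile normalization *Cdx2* (0.81) was called, *Pbx4* changed sign without a call (0.27), and the medians were 2.28 for *Hox* and 0.03 for outflow, limb and mesenchyme factors. With no filter the median of the other TALE genes was 0.09.

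With a library left out, 1 residual degree of freedom remained and the lone library of a genotype was assumed to vary like the others. Members called ranged from 0 to 3 higher and 0 to 1 lower, and all genes from 600 to 2558 higher and 1453 to 3106 lower. The log2 fold changes ranged from 2.19 to 2.78 for *Cdx1*, 0.44 to 0.75 for *Cdx2*, 0.52 to 0.80 for *Meis1*, 0.06 to 0.45 for *Meis2*, 0.07 to 0.32 for *Meis3*, -0.70 to -0.48 for *Pbx2*, -1.06 to -0.59 for *Pbx3* and -0.46 to 0.30 for *Pbx4*. List medians ranged from 1.54 to 2.27 for *Hox*, -0.50 to -0.04 for other TALE genes, 0.59 to 1.68 for posterior axis genes and -0.46 to 0.09 for outflow, limb and mesenchyme factors. The cause of these changes was not tested, beyond the fewer libraries and genes that each setting uses.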

Other observations

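*Cdx2* is also a factor of the intestinal epithelium and of the trophectoderm, and marker lists of both were read beside it. Of 8 tested intestinal genes 4 were lower and 0 higher (50% called, against 28.6% of all genes) in the libraries labelled *Taf4a*-/-, where both *Cdx2* values were above WT without passing the test. *Tff3*, a peptide of mucus-secreting cells, fell from 294 and 196 normalized counts in WT to 3.92 and 2.21. Markers of visceral endoderm and liver, an epithelium that shares genes with intestine, fell as well (11 of 12 lower, median -5.58, summed levels 97420 and 83110 in WT against 3058 and 1932), and their part in the intestinal list was not tested. Of 17 tested trophectoderm genes 1 was higher and 3 were lower (23.5% called), and the median of their log2 fold changes was -0.07. *Tcfap2c*, which is also a germ cell factor, rose from 237 and 211 to 652 and 564 normalized counts, and *Krt7*, a keratin of simple epithelia, fell from 943 and 1596 to 239 and 191.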
